A study of Homo sapiens with 15 samples.

Results

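The 10 genes described here belong to bone morphogenetic protein (BMP) signalling in HCC95, an established cell line from a human lung squamous cell carcinoma (LUSC). They are the ID genes ID1, ID2, ID3 and ID4, the ligands BMP2, BMP4 and BMP7, and the inhibitors SMAD6, SMAD7 and BAMBI. All 10 were found by symbol among the 61544 genes of the count table, and all 10 were among the 25108 genes that passed the low-count filter. The genes were selected on results of these same libraries. Their levels and fold changes are therefore given as a description without p-values.

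RNA-seq was performed on HCC95 cells given a small interfering RNA (siRNA) against TP63 (siTP63b), SOX2 (siSOX2b), KLF5 (siKLF5b) or GRHL2 (siGRHL2a), or the control siRNA siNC1. Each of the 5 groups had 3 libraries of polyadenylated RNA. The question of the study was what the 4 squamous transcription factors control in these cells. Every group is the same cell line without any other genetic change named in the labels, each factor was targeted by 1 siRNA, and the labels do not say whether replicates were separate cultures. The time of RNA collection is not given in the sources used here. The p-values below measure the spread between these libraries, which may be technical.

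In BMP signalling, a secreted ligand brings together type I and type II receptors on the cell surface. The type I receptor then phosphorylates SMAD1, SMAD5 or SMAD9, which enter the nucleus with SMAD4 and act on target genes, the ID genes among the best known. SMAD6, SMAD7 and the decoy receptor BAMBI are themselves induced by the pathway and dampen it. ID proteins carry a helix-loop-helix but no basic region, so they pair with E proteins such as TCF3, TCF4 and TCF12 and keep them off DNA. In many epithelia ID proteins are linked to proliferation and to restraint of differentiation.

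RefSeq promoter windows were read for 8 of the 10 genes, and BMP2 and BMP7 had no entry. The windows of ID1, ID3 and ID4, which shared an order of levels in siTP63b, siGRHL2a and siSOX2b, are shown with that of BAMBI, whose libraries overlapped across those groups. Each is the stretch before the RefSeq start in GRCh38.p14, written 5′ to 3′ on the strand of the gene and ended before any exon of that gene in Gencode release 44. Capitals mark matches on either strand to GGCGCC, a sequence bound by SMAD1 and SMAD5, to CAGAC, which holds the short SMAD box, and to GGGCGG, the GC box bound by SP and KLF family factors. The window of ID1 lies at chr20:31605039-31605282 on the plus strand, that of ID3 at chr1:23559502-23559751 on the minus strand, that of ID4 at chr6:19837120-19837369 on the plus strand and that of BAMBI at chr10:28677271-28677509 on the plus strand.
ID1: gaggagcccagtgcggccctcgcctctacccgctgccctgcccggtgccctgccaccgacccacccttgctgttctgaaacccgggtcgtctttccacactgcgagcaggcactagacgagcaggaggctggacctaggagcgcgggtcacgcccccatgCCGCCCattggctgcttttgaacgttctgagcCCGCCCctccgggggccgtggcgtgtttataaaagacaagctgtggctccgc
ID3: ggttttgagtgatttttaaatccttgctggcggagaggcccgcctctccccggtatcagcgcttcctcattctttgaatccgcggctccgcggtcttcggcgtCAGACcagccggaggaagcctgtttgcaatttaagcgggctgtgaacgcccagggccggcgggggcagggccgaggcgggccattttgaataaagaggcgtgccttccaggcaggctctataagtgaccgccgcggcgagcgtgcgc
ID4: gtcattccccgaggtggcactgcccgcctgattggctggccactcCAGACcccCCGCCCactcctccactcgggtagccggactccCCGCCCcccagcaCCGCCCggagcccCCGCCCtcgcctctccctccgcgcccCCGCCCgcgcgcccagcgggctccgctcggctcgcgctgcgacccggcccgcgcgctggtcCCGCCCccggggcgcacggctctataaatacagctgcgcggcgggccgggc
BAMBI: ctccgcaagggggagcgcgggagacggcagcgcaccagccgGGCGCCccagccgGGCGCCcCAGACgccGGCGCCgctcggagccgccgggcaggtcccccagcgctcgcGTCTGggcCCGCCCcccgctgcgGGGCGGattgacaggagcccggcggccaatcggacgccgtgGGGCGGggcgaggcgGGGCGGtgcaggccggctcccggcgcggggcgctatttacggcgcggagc

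ID1 held 2 GC boxes, ID3 held 1 match to CAGAC, and ID4 held 1 match to CAGAC and 6 GC boxes. None of the 3 windows held GGCGCC, while that of BAMBI held 3 matches to it, 2 matches to CAGAC and 4 GC boxes. The window of ID2 held 2 GC boxes and neither SMAD sequence, and it is not printed because Gencode places an exon of ID2 within it. SMAD6 held 3 GC boxes, 1 of the 3 windows of BMP4 held GGCGCC, and 2 of the 3 windows of SMAD7 held CAGAC. Among the 35116 RefSeq windows of 250 bases, 16.4% held GGCGCC, 38% held CAGAC and 42.6% held GGGCGG. No printed match overlapped another. A match is a description of these letters and does not show binding in HCC95 cells.

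Library totals ran from 15655495 counts in siKLF5b to 34229063 in siGRHL2a. The columns of the table fell into 2 sets by name, the 6 libraries of siNC1 and siKLF5b and the 9 libraries of siTP63b, siSOX2b and siGRHL2a. Among genes with 20 to 500 counts, even numbers made up 49.7% to 50.7% of the counts in the 6 libraries and 66.1% to 69% in the 9. The column set and the knockdown cannot be told apart where one of the latter 3 groups is set beside siNC1. The comparisons made here are siKLF5b against siNC1 and the other 3 knockdowns against each other. Relative to siNC1, the gene that each siRNA targets had less RNA in that group, with a log2 fold change (log2FC) of -0.91 (standard error 0.05) for TP63, -3.04 (standard error 0.094) for SOX2, -0.64 (standard error 0.056) for KLF5 and -0.56 (standard error 0.048) for GRHL2. SOX2 had 73.3 ± 7.15 CPM (the usual scaling of counts to library size; SD, n = 3) in siNC1 and 8.97 ± 1.63 CPM in siSOX2b, but also less than siNC1 in the other groups of its column set, with 29.5 ± 2.23 CPM in siTP63b and 20.2 ± 1.54 CPM in siGRHL2a. GRHL2, too, was below its siNC1 mean of 135 ± 1.01 CPM throughout that column set. Its mean was 91.3 ± 0.56 CPM with its own siRNA, 100 ± 4.58 CPM with the SOX2 siRNA and 117 ± 2.39 CPM with the TP63 siRNA. The siGRHL2a libraries (90.8 to 91.9 CPM) lay below those of siSOX2b (96 to 105 CPM), but by less than below siNC1. For TP63 the means of siSOX2b (690 CPM) and siGRHL2a (831 CPM) were not below that of siNC1 (682 CPM). All 8 squamous markers examined were above 3 counts in each group. Their summed level was 6040 to 12200 CPM over the libraries, against 3.75 to 10 CPM for 6 fibroblast markers, 3.15 to 15.1 CPM for 4 endothelial markers and 21.5 to 39.8 CPM for 4 immune markers. KRT5 made up most of the squamous sum, with group means from 5360 CPM in siKLF5b to 9190 CPM in siGRHL2a. The squamous list also holds TP63 and SOX2, which were themselves targeted. The fibroblast marker DCN, the T cell marker CD3E and the myeloid marker LYZ were at or under 3 counts in every library. Other markers of these lists were not. The immune sum was nearly all CD68, with group means from 22.6 CPM in siKLF5b to 34.6 CPM in siGRHL2a. The fibroblast marker COL1A1 had group means from 2.12 CPM in siKLF5b to 5.22 CPM in siSOX2b. In bulk RNA, fewer cells with a transcript and less transcript per cell cannot be told apart.

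CPM values below were scaled with TMM factors, which correct library sizes for differences in RNA composition. Means are given with the SD over 3 libraries. ID1 (ENSG00000125968.9, chromosome 20 of hg38 from 31605283 to 31606515, plus strand) encodes the ID protein most often used as a readout of BMP signalling. It had 12.9, 12.9 and 10.7 CPM in the siNC1 libraries and 6.54, 5.3 and 5.02 CPM in the siKLF5b libraries. It had 136, 140 and 159 CPM in siTP63b, 85.3, 75.4 and 82.9 CPM in siSOX2b, and 95.7, 85.8 and 105 CPM in siGRHL2a. The groups did not overlap in any of the 4 comparisons, although the highest siSOX2b library and the lowest siGRHL2a library nearly touched. ID1 was 2.14-fold lower in siKLF5b than in siNC1, with a log2FC of -1.1 (standard error 0.12). It was higher in siTP63b than in siSOX2b, with a log2FC of 0.84 (standard error 0.072), and than in siGRHL2a, with a log2FC of 0.6 (standard error 0.071). Between siSOX2b and siGRHL2a the log2FC was -0.23 (standard error 0.072).

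ID3 (ENSG00000117318.9, chromosome 1 from 23557926 to 23559501, minus strand), a close relative of ID1, had 3.32, 3.07 and 3.19 CPM in siNC1 and 3.89, 4.85 and 3.75 CPM in siKLF5b. Unlike ID1 it was not lower with the KLF5 siRNA, and its log2FC was 0.39 (standard error 0.14). Its level was 35.3, 36 and 40.9 CPM in siTP63b, 22.3, 22.1 and 22.6 CPM in siSOX2b, and 28.8, 25.7 and 25.9 CPM in siGRHL2a. These 3 groups lay apart from each other in the same order as for ID1, with siTP63b highest and siSOX2b lowest. The log2FC was 0.74 (standard error 0.082) between siTP63b and siSOX2b, just under the threshold of 0.75, and 0.48 (standard error 0.081) between siTP63b and siGRHL2a. Between siSOX2b and siGRHL2a it was -0.26 (standard error 0.083).

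ID2 (ENSG00000115738.10, chromosome 2 from 8678845 to 8684461, plus strand), known also for binding the retinoblastoma protein, had 2.57, 3.29 and 2.73 CPM in siNC1 and 2.01, 1.89 and 1.91 CPM in siKLF5b. The siKLF5b libraries lay below the siNC1 libraries, with a log2FC of -0.55 (standard error 0.18). ID2 had 10.8, 11.7 and 11 CPM in siTP63b, 7.46, 6.31 and 7.16 CPM in siSOX2b, and 8.18, 8.17 and 10.3 CPM in siGRHL2a. The order of the 3 groups was again siTP63b, siGRHL2a and siSOX2b, with no overlap. The log2FC was 0.68 (standard error 0.12) between siTP63b and siSOX2b, 0.33 (standard error 0.12) between siTP63b and siGRHL2a, and -0.35 (standard error 0.12) between siSOX2b and siGRHL2a. The antisense gene ID2-AS1 shares 3020 bases with ID2 and had 21.1% as many counts, so the values of ID2 are uncertain to that extent.

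ID4 (ENSG00000172201.12, chromosome 6 from 19837370 to 19842197, plus strand) had the widest range of the 10 genes. It had 0.266, 0.274 and 0.377 CPM in siNC1, which rest on 6, 5 and 9 counts, and 0.32, 0.534 and 0.636 CPM in siKLF5b, which rest on 7, 13 and 10 counts. These low groups overlapped, and the log2FC of 0.64 had a standard error of 0.41. ID4 had 17.5, 15.9 and 21.2 CPM in siTP63b, 5.75, 4 and 4.6 CPM in siSOX2b, and 10.8, 10.3 and 9.73 CPM in siGRHL2a. The 3 groups were far apart, and ID4 was 3.8-fold higher in siTP63b than in siSOX2b, with a log2FC of 1.92 (standard error 0.13). The log2FC was 0.82 (standard error 0.12) between siTP63b and siGRHL2a and -1.1 (standard error 0.14) between siSOX2b and siGRHL2a. Without replicate 3 of siTP63b, its highest library, the log2FC between siTP63b and siGRHL2a was 0.71, under the threshold.

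**Figure D1:**
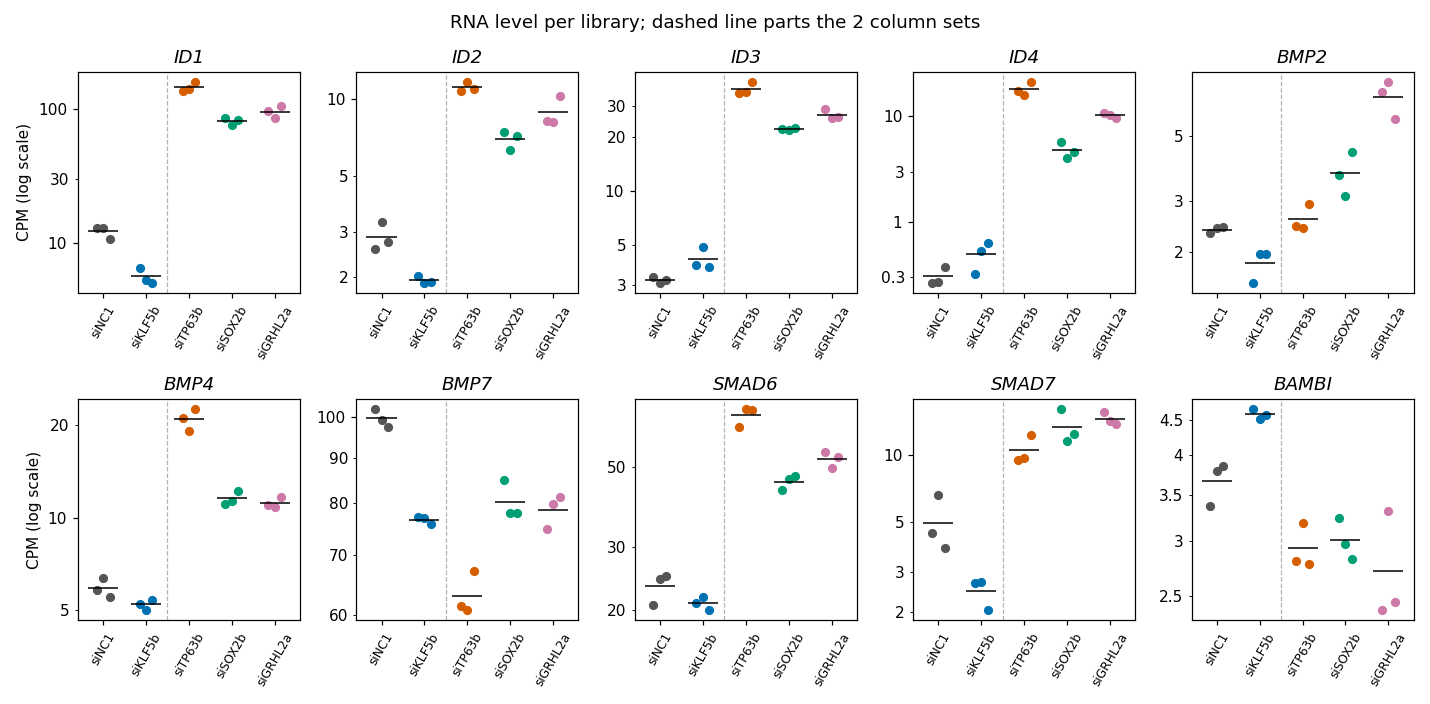
RNA level of each of the 10 genes in the 15 libraries, in CPM on a log axis whose range differs between panels. Points are libraries, horizontal bars are means of 3, and the dashed line parts the 2 column sets. For ID1, ID2, ID3, ID4, BMP4 and SMAD6 the siTP63b libraries lie above all others, whereas siTP63b has the lowest points for BMP7.

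The first 1711 bases of ID4 lie inside LNC-LBCS, a long noncoding RNA gene on the opposite strand (chromosome 6 from 19323428 to 19839080). Over the 15 libraries LNC-LBCS had 152% as many counts as ID4. Its mean was 4.07 ± 0.493 CPM in siNC1, 5.38 ± 0.372 CPM in siKLF5b, 21.1 ± 0.326 CPM in siTP63b, 13.9 ± 1.21 CPM in siGRHL2a and 9.91 ± 0.137 CPM in siSOX2b (SD, n = 3 each). The order of the groups of the 9 libraries was therefore that of ID4. The count of LNC-LBCS exceeded that of ID4 in every library, by 5 to 190 counts. In CPM the excess was 3.24 to 4.07 in siNC1, 4.52 to 5.15 in siKLF5b, 0.178 to 4.86 in siTP63b, 4.28 to 5.76 in siSOX2b and 2.61 to 4.94 in siGRHL2a. The excess stayed within these narrow bounds apart from replicate 3 of siTP63b, where it was 5 counts, while ID4 itself went from a mean of 0.306 CPM to one of 18.2 CPM. In the same table, for each of 2189 pairs in which a gene lies wholly within another on the same strand, and for each of 3499 pairs on opposite strands, the outer gene had at least as many counts as the inner one in every library. Reads in shared bases thus entered both genes whatever the strand. The counts of LNC-LBCS and ID4 were not separated, and the RNA that carried the increase cannot be assigned to one of them in the shared bases.

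**Figure D2:**
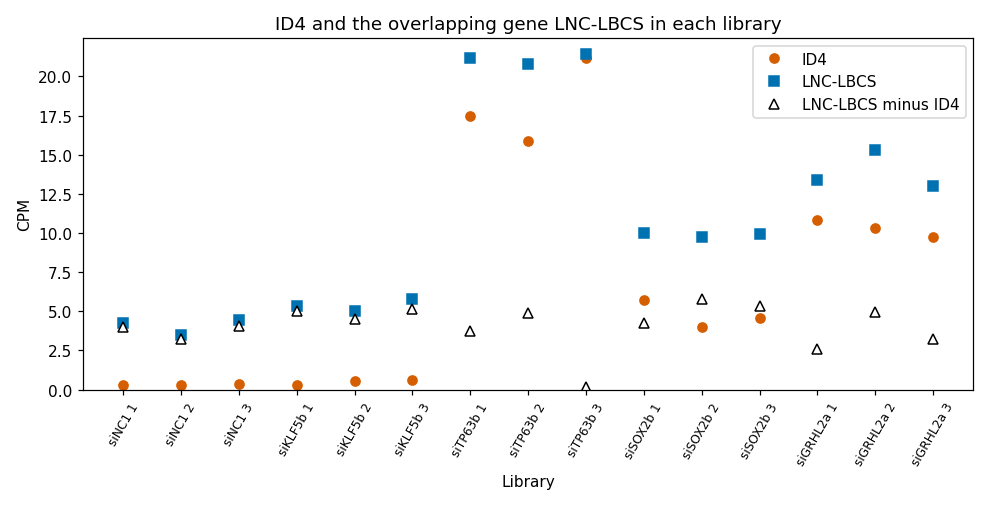
CPM of ID4 (circles), of the overlapping gene LNC-LBCS (squares) and of their difference (triangles) in each of the 15 libraries, with the replicate number after the group. The first 2 are high together in the siTP63b, siSOX2b and siGRHL2a libraries, while the difference lies between 0.178 and 5.76 CPM.

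Beside siNC1, the mean of ID1 was 12-fold higher in siTP63b, 6.69-fold higher in siSOX2b and 7.87-fold higher in siGRHL2a. For ID3 the values were 11.7-fold, 6.97-fold and 8.37-fold, and for ID2 they were 3.92-fold, 2.45-fold and 3.12-fold. ID4 was 58-fold, 15.3-fold and 32.8-fold higher, from the few counts it had in siNC1. All 4 ID genes thus lay higher in the 9 libraries than in the 6, and the column set and the knockdown cannot be told apart here. The summed level of 5 glandular lung epithelial markers moved with the same set, from 2.65 to 3.02 CPM in the 6 libraries to 5.48 to 11.3 CPM in the 9. That sum was nearly all NKX2-1, a lung epithelial transcription factor, with group means of 2.53 CPM in siNC1, 2.43 CPM in siKLF5b, 5.55 CPM in siTP63b, 10 CPM in siGRHL2a and 8.49 CPM in siSOX2b. NAPSA, SFTPB, SFTPC and SCGB1A1 had group means of at most 0.356 CPM. The endothelial sum moved the other way with the set, from 11.1 to 15.1 CPM in the 6 libraries to 3.15 to 7.66 CPM in the 9, and was nearly all VWF, the von Willebrand factor gene. The part of these markers in the result was not tested. The surfactant gene SFTPC, which defines alveolar type II cells, was at or under 3 counts in every library.

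BMP4 (ENSG00000125378.16, chromosome 14 from 53949736 to 53958761, minus strand) and BMP2 encode closely related ligands, and BMP7 belongs to another branch of the family. BMP4 had 5.81, 6.37 and 5.54 CPM in siNC1 and 5.26, 5.01 and 5.41 CPM in siKLF5b, with a log2FC of -0.17 (standard error 0.13). It had 21.1, 19.1 and 22.5 CPM in siTP63b, 11.1, 11.3 and 12.2 CPM in siSOX2b, and 11, 10.8 and 11.7 CPM in siGRHL2a. BMP4 stood apart in siTP63b among these 3 groups, since siSOX2b and siGRHL2a overlapped, with a log2FC of 0.04 (standard error 0.1). It was higher in siTP63b by a log2FC of 0.86 (standard error 0.098) relative to siSOX2b and of 0.9 (standard error 0.097) relative to siGRHL2a. Beside siNC1 the log2FC was 1.83 in siTP63b, 0.97 in siSOX2b and 0.93 in siGRHL2a.

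BMP2 (ENSG00000125845.7, chromosome 20 from 6767686 to 6780246, plus strand) had another order. It had 2.31, 2.41 and 2.43 CPM in siNC1, 1.56, 1.97 and 1.97 CPM in siKLF5b, and 2.45, 2.41 and 2.92 CPM in siTP63b, where the libraries overlapped those of siNC1. It had 3.67, 3.12 and 4.42 CPM in siSOX2b and 7.08, 7.69 and 5.75 CPM in siGRHL2a. BMP2 was thus highest in siGRHL2a, and it was 2.64-fold lower in siTP63b than there, with a log2FC of -1.4 (standard error 0.17). The log2FC was -0.88 (standard error 0.16) between siSOX2b and siGRHL2a, -0.51 (standard error 0.18) between siTP63b and siSOX2b, and -0.38 (standard error 0.21) between siKLF5b and siNC1.

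BMP7 (ENSG00000101144.13, chromosome 20 from 57168753 to 57266641, minus strand) had the highest CPM of the 3 ligands per kilobase of exon in every group, but per kilobase of gene span BMP4 was above it in siTP63b, siSOX2b and siGRHL2a. It had 102, 99.3 and 97.5 CPM in siNC1 and 77.3, 77.1 and 75.8 CPM in siKLF5b. It had 61.4, 60.7 and 67.1 CPM in siTP63b, 85, 78 and 78 CPM in siSOX2b, and 74.9, 79.8 and 81.3 CPM in siGRHL2a. The siNC1 libraries were the highest, the siTP63b libraries were the lowest, and the other 3 groups shared a range. The log2FC was -0.38 (standard error 0.055) between siKLF5b and siNC1, -0.35 (standard error 0.054) between siTP63b and siSOX2b, and -0.32 (standard error 0.054) between siTP63b and siGRHL2a, each smaller than 0.75. The 2 siRNA groups siSOX2b and siGRHL2a differed by a log2FC of 0.03 (standard error 0.053).

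Among the inhibitors, SMAD6 (ENSG00000137834.15, chromosome 15 from 66702236 to 66782849, plus strand), which acts mainly on BMP receptors, followed the order of the ID genes. It had 20.7, 24.4 and 24.9 CPM in siNC1 and 21, 21.8 and 20 CPM in siKLF5b, and these groups overlapped, with a log2FC of -0.15 (standard error 0.078). It had 64.5, 72.5 and 71.9 CPM in siTP63b, 43.3, 46.4 and 47.1 CPM in siSOX2b, and 55, 49.7 and 53.3 CPM in siGRHL2a. The 3 groups did not overlap, and the log2FC was 0.61 (standard error 0.067) between siTP63b and siSOX2b, 0.4 (standard error 0.066) between siTP63b and siGRHL2a, and -0.21 (standard error 0.067) between siSOX2b and siGRHL2a. None of these reached 0.75.

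SMAD7 (ENSG00000101665.10, chromosome 18 from 48919853 to 48950965, minus strand), which dampens both the BMP and the TGF-beta arm, did not follow that order. It had 4.48, 6.64 and 3.86 CPM in siNC1 and 2.7, 2.71 and 2.04 CPM in siKLF5b. The siKLF5b libraries lay below those of siNC1, with a log2FC of -0.96 (standard error 0.19). Without replicate 2 of siNC1, its highest library, the log2FC was -0.73, under the threshold. SMAD7 had 9.5, 9.69 and 12.2 CPM in siTP63b, 15.9, 11.5 and 12.3 CPM in siSOX2b, and 15.4, 14.1 and 13.6 CPM in siGRHL2a. Here siTP63b was the lowest of the 3 by mean, and its libraries overlapped those of siSOX2b, with a log2FC of -0.34 (standard error 0.14). The log2FC between siTP63b and siGRHL2a, which did not overlap, was -0.46 (standard error 0.13), and that between siSOX2b and siGRHL2a, which did, was -0.12 (standard error 0.13).

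BAMBI (ENSG00000095739.11, chromosome 10 from 28677510 to 28682932, plus strand) encodes a receptor without a kinase domain that blocks signalling. It had 3.37, 3.79 and 3.86 CPM in siNC1 and 4.67, 4.52 and 4.58 CPM in siKLF5b, a difference without overlap and with a log2FC of 0.32 (standard error 0.17). It had 2.81, 3.19 and 2.78 CPM in siTP63b, 3.24, 2.97 and 2.83 CPM in siSOX2b, and 2.38, 3.32 and 2.45 CPM in siGRHL2a. These 3 groups overlapped throughout, and their log2FC values were -0.05, 0.11 and 0.16, each with a standard error of 0.17. BAMBI did not share the order of the ID genes. Any link between the promoter matches and the levels was not tested.

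Across genes, levels are comparable only per length. For the whole span of each gene, which is the length counted in the table, ID1 had the highest CPM per kilobase of the 10 in every group and ID3 the second highest. Per kilobase of exon, BMP7 came first in siNC1 and siKLF5b, and ID1 came first in siTP63b, siSOX2b and siGRHL2a. ID4 was the lowest of the 10 per kilobase of exon in siNC1 and siKLF5b.

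At the thresholds of the study, an adjusted p below 0.05 with an absolute log2FC above 0.75, 2 of the 10 genes were past both in siKLF5b against siNC1. Both were lower in siKLF5b, ID1 and SMAD7, while 1.35% of all genes tested were past the thresholds in that direction and 1.9% in the other. The median log2FC of the 10 was -0.28, beside -0.0097 over all genes. In siTP63b against siSOX2b 3 were higher, ID1, ID4 and BMP4, beside 3.86% of all genes higher and 2.86% lower. The median was 0.65 for the 10 and 6e-04 for all genes. In siTP63b against siGRHL2a ID4 and BMP4 were higher and BMP2 was lower, beside 2.18% of all genes higher and 3.26% lower, with a median of 0.37 for the 10 and -0.009 for all genes. In siSOX2b against siGRHL2a ID4 and BMP2 were lower, beside 1.06% of all genes higher and 2.28% lower, with medians of -0.22 and -0.0184. Because the genes were picked from these results, the counts describe the choice and nothing is read from them. The last 3 comparisons share libraries with each other.

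**Figure D3:**
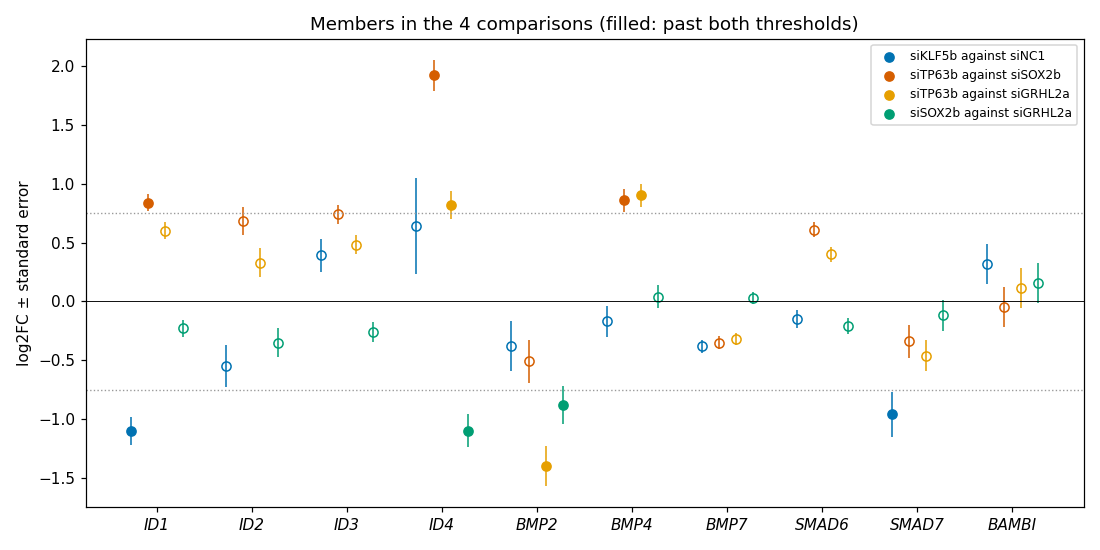
The log2FC of each gene with its standard error in the 4 comparisons. Filled points are past both thresholds, and dotted lines mark an absolute log2FC of 0.75. ID1, ID2, ID3, ID4 and SMAD6 share a direction within each comparison of siTP63b, siSOX2b and siGRHL2a, BMP2 and SMAD7 lie on the other side in those of siTP63b, and ID1 and SMAD7 are the filled points of siKLF5b.

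The other genes of the pathway were taken from 8 lists with 96 genes, of which 77 passed the low-count filter. The lists, too, were chosen with earlier results of these data known. Their adjusted p-values are therefore a description and not independent support. In siKLF5b against siNC1, 2 of the 77 rose and 2 fell, beside 1.9% higher and 1.35% lower among all genes tested, and the median log2FC of the 77 was -0.11. Each adjusted p below comes from the edgeR quasi-likelihood test, with the Benjamini-Hochberg adjustment taken over all genes tested. TOB1, a protein that binds SMADs and restrains BMP signalling, fell from 34.8 ± 0.678 to 16.9 ± 1.32 CPM (SD, n = 3 each), with a log2FC of -1.04 (adjusted p = 1.9e-12, edgeR). ACVR2B, a type II receptor for activins and BMPs, fell from 23.2 ± 1.07 to 12.4 ± 1.17 CPM, with a log2FC of -0.91 (adjusted p = 4.7e-10, edgeR). Both calls held in the 13 alternatives that kept the same thresholds, and ACVR2B was not past an absolute log2FC of 1. CCN2, a matricellular protein gene, rose from 1.74 ± 0.496 to 3.16 ± 0.204 CPM (adjusted p = 0.0026, edgeR), and NODAL, a TGF-beta family ligand, rose from 0.616 ± 0.302 to 1.25 ± 0.098 CPM (adjusted p = 0.032, edgeR). CCN2 lost the call without replicate 1 or replicate 2 of siNC1. The call of NODAL was lost without any one of those 2 libraries or of the 3 siKLF5b libraries, with an adjusted p of 0.007 to 0.18 over its alternatives, and an overlapping gene held 36.2% as many counts as NODAL. CCN2 and NODAL were listed with the TGF-beta and activin arm, whose 20 tested genes had a median log2FC of -0.23. In that arm TGFB2 fell from 283 to 175 CPM (log2FC -0.7, adjusted p = 1.2e-15, edgeR). SMAD3 fell with a log2FC of -0.53 (adjusted p = 1.4e-10, edgeR). Both were under the fold threshold.

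In siTP63b against siSOX2b, 7 of the 77 were higher and 2 were lower, and in siTP63b against siGRHL2a the counts were also 7 and 2. The medians were 0.06 and 0.03. In siSOX2b against siGRHL2a 1 was higher and 3 were lower, with a median of -0.07. Among all genes tested the shares higher and lower in these comparisons were 3.86% and 2.86%, 2.18% and 3.26%, and 1.06% and 2.28%. Of the 12 tested extracellular antagonists and modulators, which bind BMP ligands or alter their reach, 3 were higher and 1 was lower in siTP63b against siSOX2b, and 2 were higher and 1 was lower in siTP63b against siGRHL2a. SOSTDC1 had 18.7 ± 2.18 CPM in siTP63b, 8.22 ± 0.908 CPM in siGRHL2a and 7.58 ± 0.14 CPM in siSOX2b, and the log2FC of siTP63b was 1.3 against siSOX2b (adjusted p = 6e-16, edgeR) and 1.18 against siGRHL2a (adjusted p = 6.4e-15, edgeR). In siNC1 and siKLF5b its mean was far higher, 65 ± 0.677 and 89.1 ± 2.94 CPM. The values of SOSTDC1 are uncertain because it shares bases with overlapping genes. FSTL3, which binds activins and BMPs, was lower in siTP63b, 7.59 ± 0.465 CPM against 13.7 ± 2.4 CPM in siSOX2b (log2FC -0.85, adjusted p = 1.5e-06, edgeR) and 14.3 ± 1.49 CPM in siGRHL2a (log2FC -0.92, adjusted p = 3.4e-07, edgeR). The first of these calls was lost without replicate 3 of siSOX2b. The remaining antagonists past the thresholds were SOST and NOG. The rule for named genes covers SOST in siSOX2b against siGRHL2a only. Its other call and those of NOG are given because few genes passed. SOST had 3.43 ± 0.555 CPM in siTP63b, 4 ± 1.22 CPM in siGRHL2a and 1.18 ± 0.319 CPM in siSOX2b, and was thus lowest in siSOX2b (adjusted p = 4.2e-05 against siTP63b and 7.9e-06 against siGRHL2a, edgeR). NOG had 30, 24 and 10 counts in siTP63b, 6, 14 and 4 in siSOX2b, 2, 4 and 2 in siGRHL2a and 0 in the 6 libraries of the other groups, where a count of 0 allows up to 3. Its call against siSOX2b (adjusted p = 0.047, edgeR) was lost in 7 of 12 alternatives, over which the adjusted p ran from 0.021 to 0.2. Its call against siGRHL2a (adjusted p = 0.00028, edgeR) was kept in the 12, among them the setting without a low-count filter. Only in siTP63b, where NOG is high, did all libraries reach 10 counts, so its place among the tested genes depends on that group. All its counts above 0 were even, in the column set with an excess of even counts. Both calls are therefore uncertain.

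Of 17 listed response genes other than the ID genes, 15 were tested. DLX5, a homeobox gene induced by BMPs in bone, had 3.24 ± 0.363 CPM in siTP63b, 1.08 ± 0.282 CPM in siGRHL2a and 1.49 ± 0.292 CPM in siSOX2b. It was higher in siTP63b in both comparisons, with a log2FC of 1.13 against siSOX2b (adjusted p = 0.00014, edgeR) and 1.59 against siGRHL2a (adjusted p = 9.3e-07, edgeR). ATOH8, a basic helix-loop-helix factor gene responsive to SMAD1 and SMAD5, had 3.37 ± 0.262, 1.97 ± 0.465 and 1.33 ± 0.426 CPM in the same 3 groups, and 0.285 ± 0.142 CPM in siNC1 and 0.174 ± 0.161 CPM in siKLF5b. Within the 9 libraries its order by mean was that of ID4, although siSOX2b and siGRHL2a overlapped. The log2FC was 1.32 against siSOX2b (adjusted p = 0.00019, edgeR) and 0.77 against siGRHL2a (adjusted p = 0.023, edgeR). The second call was lost in 5 of 12 alternatives, which were DESeq2 and the omission of replicate 2 or 3 of siTP63b or of siGRHL2a, with an adjusted p of 0.012 to 0.12. TBX2, a T-box factor gene, was lowest in siGRHL2a with 0.397 ± 0.113 CPM, against 0.959 ± 0.12 CPM in siSOX2b (adjusted p = 0.025, edgeR) and 0.866 ± 0.14 CPM in siTP63b (adjusted p = 0.049, edgeR, outside the naming rule). An overlapping gene had 1240% as many counts as TBX2, and its calls were lost in 3 and 8 of 12 alternatives, so its values are uncertain. Other known response genes of the list, such as MSX1, MSX2, GATA3 and RUNX2, were not past the thresholds in these comparisons. SNAI2 was lower in siTP63b, just under the fold threshold. Its log2FC was -0.67 against siSOX2b (adjusted p = 2.8e-07, edgeR) and -0.72 against siGRHL2a (adjusted p = 1.4e-07, edgeR). The median log2FC of the 15 genes was 0 in siTP63b against siSOX2b and 0.03 in siTP63b against siGRHL2a.

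Among receptors, BMPR1B, a type I receptor of BMPs, had 13.6 ± 1.62 CPM in siTP63b and 7.65 ± 0.371 CPM in siSOX2b (log2FC 0.82, adjusted p = 8.5e-08, edgeR), a call lost without replicate 2 of siTP63b. None of the 4 SMAD transducers, of the 3 E proteins or of the 5 other ligands tested was past the thresholds in any of the 4 comparisons. SMAD9 came nearest among the transducers, with a log2FC of 0.64 between siTP63b and siSOX2b, and its mean was 12.6 ± 1.9 CPM against 8.04 ± 1.07 CPM. SMAD1 had 14 ± 0.458, 14.8 ± 1.03 and 14.6 ± 1.44 CPM in siTP63b, siSOX2b and siGRHL2a. Of the E proteins that ID proteins bind, TCF3 had 71.6 ± 2.84 CPM in siKLF5b and 47.2 ± 2.05 CPM in siNC1, a log2FC of 0.6. TCF4 had 51.9 ± 2.76 CPM in siTP63b, 69.9 ± 0.898 CPM in siGRHL2a and 54.3 ± 2.65 CPM in siSOX2b, and its log2FC of -0.43 in siTP63b against siGRHL2a (adjusted p = 8.6e-08, edgeR) was under the fold threshold. In the same order TCF3 had 123 ± 12, 114 ± 3.39 and 112 ± 3.19 CPM, and TCF12 had 87.1 ± 1.91, 89 ± 2.58 and 83.6 ± 2.92 CPM.

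In the TGF-beta and activin arm, which signals through SMAD2 and SMAD3, 20 of 21 genes were tested. INHBB, an activin subunit, had 4.27 ± 0.31 CPM in siTP63b, 2.21 ± 0.63 CPM in siGRHL2a and 1.26 ± 0.442 CPM in siSOX2b. By mean this was the order of the ID genes, although siSOX2b and siGRHL2a overlapped. It was higher in siTP63b than in siSOX2b (log2FC 1.8, adjusted p = 5.6e-08, edgeR) and, outside the naming rule, than in siGRHL2a (log2FC 0.95, adjusted p = 0.00068, edgeR). Its call between siSOX2b and siGRHL2a (log2FC -0.85, adjusted p = 0.0083, edgeR) was lost without replicate 1 or 2 of siSOX2b or replicate 2 of siGRHL2a, with an adjusted p of 0.0018 to 0.1 over its alternatives. The coreceptor TGFBR3 was higher in siTP63b than in siGRHL2a, 12 ± 0.711 against 5.79 ± 0.922 CPM (adjusted p = 2.8e-10, edgeR). The type I receptor ACVR1C was lower in siSOX2b than in siGRHL2a, 4.48 ± 0.599 against 8.3 ± 0.466 CPM (adjusted p = 1e-05, edgeR).

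**Figure D4:**
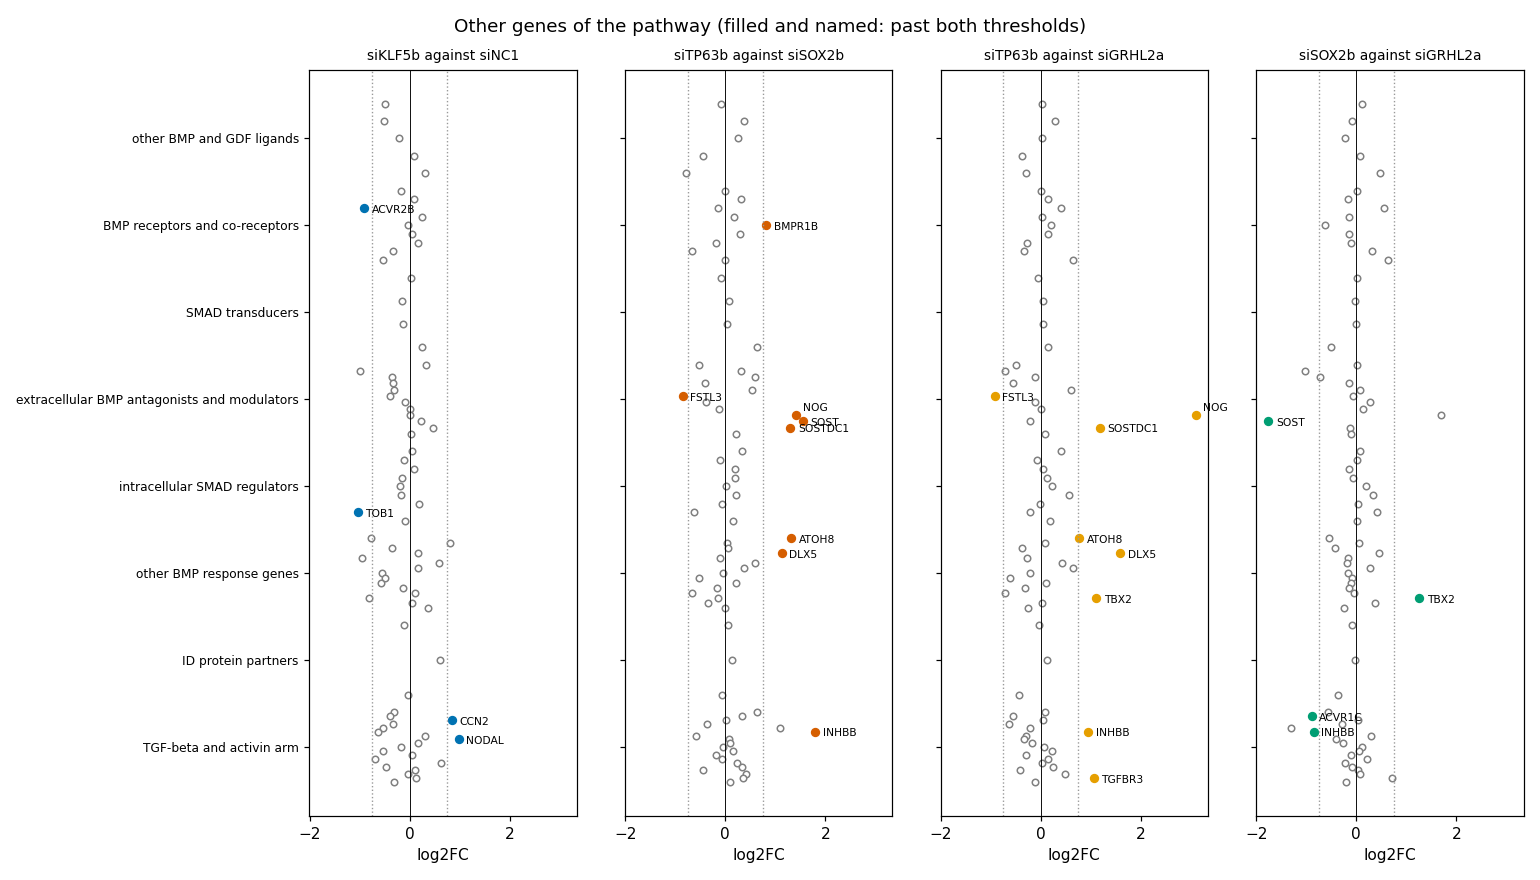
The log2FC of the other pathway genes tested and reported here, by list, in the 4 comparisons. Each point is a gene, filled and named points are past both thresholds, and dotted lines mark an absolute log2FC of 0.75. The lists of SMAD transducers, E proteins that pair with ID proteins and other ligands hold no filled point.

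The profiles of the ID genes over the 5 group means of log2 CPM were compared with those of 14329 other genes, each centred on its own mean, by the root mean square (RMS) difference. For ID1 the nearest genes were ANKRD1, an ankyrin repeat protein gene, at an RMS difference of 0.19 and ENSG00000272639 at 0.21. ANKRD1 had 17.9 ± 1.05 CPM in siNC1, 6.95 ± 0.869 in siKLF5b, 149 ± 11.6 in siTP63b, 105 ± 2.68 in siSOX2b and 102 ± 2.25 in siGRHL2a, so it was lower in siKLF5b and highest in siTP63b as ID1 was. Unlike ID1, its siSOX2b and siGRHL2a libraries overlapped, and siGRHL2a was not the higher by mean. For ID2 they were ENSG00000267922 at 0.09 and CEBPB, a leucine zipper factor gene, at 0.14. For ID3 they were DKK1, a secreted WNT inhibitor gene, at 0.16 and CEBPB-AS1 at 0.23. DKK1 had 9.29 ± 0.353 CPM in siNC1, 8.7 ± 1.46 in siKLF5b, 86.8 ± 4.04 in siTP63b, 57.1 ± 2.57 in siSOX2b and 65.8 ± 1.3 in siGRHL2a. ID4 had no profile as close, with CCDC85B at 0.65 and RPSAP19, a pseudogene whose reads can be shared with copies, at 0.69. Among the ID genes themselves the RMS difference was 0.58 for ID1 and ID3, 0.59 for ID2 and ID3, 0.74 for ID1 and ID4, 0.82 for ID3 and ID4, 0.89 for ID1 and ID2 and 1.34 for ID2 and ID4. Each profile has 5 points, of which the difference between the 2 column sets is the largest part for these genes.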

How the data were processed

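Poly(A) RNA of HCC95 cells was sequenced on DNBSEQ-T7 as paired ends. Per the submitters' processing notes and the paper's methods, reads were aligned to hg38 with HISAT2 2.2.1 and counted with featureCounts 2.0.1 on Gencode release 40. The authors deposited raw counts per gene without normalization, and the counted length equalled the whole span of each gene. Whether strand was used and whether reads or fragments were counted are not given in the sources used here. All 15 columns were matched to libraries by name.

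The tests used edgeR 4.0.16 (with limma 3.58.1, in R 4.3.3). After filterByExpr by group and TMM scaling, all 15 libraries entered a single robust quasi-likelihood model, and the Benjamini-Hochberg adjustment covered 25108 genes. CPM are counts per TMM-scaled library size. Chi-square per gene between replicates was 2.04 to 4.34 in siNC1 and siKLF5b and 4.95 to 8.1 in siTP63b, siSOX2b and siGRHL2a. No library was therefore a copy of another. The single model shares its estimate of spread between these column sets, although they differ in noise. These steps were tried on simulated counts with changes planted in siKLF5b only, in genes with many counts. The simulation had no difference between column sets and no excess of even counts. It therefore does not cover genes with few counts or those features of the 9 libraries.

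The members and lists were chosen with earlier results of these data known. Named were the members, genes overlapping them with at least 10% as many counts, the targeted genes, up to 2 genes per list and comparison with the smallest adjusted p, and the 2 nearest profiles per ID gene with a mean of at least 5 CPM (prior count 2). Positions came from Gencode release 44. Alternatives were RLE and upper-quartile factors, other filters and thresholds, the replicate number as a block, the libraries of one column set alone, DESeq2 1.42.0, and each library left out in turn. Some genes chosen by the naming rule are not reported here.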

Additional observations from a re-analysis of the deposited data

How the results depend on the processing

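At the thresholds used, calls of the 10 members were by adjusted p and log2FC together. Among settings that tested the gene, they were kept in all but 5 member-by-setting values of the 4 comparisons. With at least 10 counts in every library ID4 was not tested. Its calls in the comparisons of siTP63b, siSOX2b and siGRHL2a were therefore lost in that setting. The log2FC of ID4 in siKLF5b against siNC1 ran from 0.47 to 0.88 without becoming a call. The direction turned for BAMBI in siTP63b against siSOX2b, never past the thresholds, which was 0.01 without replicate 1 of siSOX2b, and BMP7 in siSOX2b against siGRHL2a reached 0. SMAD7 in siKLF5b against siNC1 was -0.73 without replicate 2 of siNC1, and ID4 in siTP63b against siGRHL2a was 0.71 without replicate 3 of siTP63b. ID3 in siTP63b against siSOX2b passed with upper-quartile factors (0.75) and without replicate 1 (0.78) or 2 (0.77) of siTP63b. The cause was not tested. Low counts limit ID4 in siNC1 and siKLF5b most.

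Counts follow the order siKLF5b against siNC1, siTP63b against siSOX2b, siTP63b against siGRHL2a, siSOX2b against siGRHL2a. Without a fold threshold, 3284, 3882, 3399 and 3233 genes were lower and 2591, 4119, 3473 and 3011 higher, with 5, 8, 9 and 6 members and 26, 37, 34 and 25 pathway genes. With an absolute log2FC above 1, 163, 420, 501 and 327 genes were lower and 205, 585, 326 and 159 higher, with 1 member in each comparison and with 1, 5 and 2 pathway genes in the first comparison and the last 2, in that order. With at least 10 counts in every library, fewer genes were tested, and 471 were lower and 615 higher in the second comparison. In siTP63b against siGRHL2a 355 were higher, and in the last comparison 356 were lower and 151 higher. This setting filtered ID4 out of every comparison, and 2, 2, 2 and 1 members remained past the thresholds. With each library left out in turn, members past the thresholds numbered 1 to 2, 3 to 4, 2 to 3 and 2 to 2, and pathway genes 2 to 5, 7 to 12, 7 to 9 and 2 to 5. The pathway count was 2 without replicate 1 or 2 of siNC1, and in the last comparison 2 without replicate 2 of siSOX2b or of siGRHL2a. Genes lower ran from 296 to 347, 660 to 799, 728 to 878 and 466 to 619, and genes higher from 394 to 459, 878 to 978, 513 to 574 and 230 to 282. With the libraries of one column set alone, 394, 615, 707 and 455 genes were lower and 695, 820, 471 and 214 higher.

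Libraries with the same number did not deviate together (correlations of -0.03 to 0.03), so the numbers were not taken to pair them. With the replicate number as a block, members past the thresholds numbered 2, 3, 3 and 2 and pathway genes 4, 9, 8 and 4, and the block moved no count by over 1.5 times.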
